A study of Mus musculus with 11 samples.

Results

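Rapamycin's effect on gene expression in the mouse stomach was measured as the average of its effect without tamoxifen and its effect under tamoxifen. Of the 11 arrays of the series, the 9 whole-stomach arrays enter this comparison. They are 5 arrays of mice given rapamycin and 4 of mice without it, with tamoxifen as a stratum. The tissue was whole stomach of adult C57Bl/6 mice, and all drugs were injected daily into the peritoneum. The rapamycin group received 0.6 mg per 20 g mouse for 10 days (n = 3), and its comparison group, vehicle, received sunflower oil (n = 2). The rapamycin plus tamoxifen group received the same rapamycin for 10 days with tamoxifen at 5 mg per 20 g mouse for 3 days (n = 2), and its comparison group received that tamoxifen alone (n = 2). The strata share no array. The labels call these samples biological replicates, but nothing given here ties an array to a single mouse, so p-values measure the spread between these samples.

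Rapamycin binds the small protein FKBP12, and the pair blocks mTORC1, a kinase complex on the lysosome that senses amino acids, insulin and energy. Active mTORC1 raises protein, lipid and nucleotide synthesis and cell growth ahead of division, and it holds back autophagy and the making of lysosomes. In the stomach the epithelium is renewed throughout life from dividing isthmus cells, and high doses of tamoxifen are known to injure acid-secreting parietal cells. Arrays read RNA only, so the phosphorylated proteins that report mTORC1 activity directly were not measured. In whole tissue, fewer cells of a type and less RNA per cell cannot be told apart.

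Values are log2 expression, in which a difference of 1 is a 2-fold change, with 1 probe set for each of 22180 genes. Pit mucous cell genes averaged 11.87 to 12.04 on the 9 arrays, parietal cell genes 8.61 to 9.96 and exocrine pancreas genes 4.83 to 5.56. Squamous genes of the forestomach (keratins and cornified-envelope proteins, 12 genes) set arrays of the same group apart. Their mean was 9.35, 8.19 and 5.50 in the rapamycin arrays, against 5.22 and 4.85 in the vehicle arrays. It was 8.72 and 8.92 in the rapamycin plus tamoxifen arrays, against 9.43 and 5.01 in the tamoxifen arrays. Vehicle 2 and tamoxifen 2 correlated at 0.985 over all probe sets, closer than vehicle 1 with vehicle 2 (0.972) or tamoxifen 1 with tamoxifen 2 (0.970). The 2 arrays of separated cells, 1 of isolated parietal cells and 1 of the remaining stomach cells, had medians of 3.67 and 3.68 against 4.95 to 5.09 in whole stomach. They were set only against each other, with no test.

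Averaged over the strata, 11 of 22180 genes passed limma's test at a Benjamini-Hochberg adjusted p under 0.05, which is 0.0496% of genes. Of these, 4 fell (0.018% of genes) and 7 rose (0.0316%). The genes that fell were Atp6v0d2, a subunit of the vacuolar proton pump, Pla2g4c, a cytosolic phospholipase A2, St3gal4, a sialyltransferase, and Mcpt1, a protease of mucosal mast cells. The genes that rose were G630018N14Rik, Chst4, Klk1, Sectm1b, Per1, Bco2 and Igfbp6. In all 11, the rapamycin arrays lay on 1 side of the vehicle arrays and the rapamycin plus tamoxifen arrays on the same side of the tamoxifen arrays. Such separation in both strata was seen in 1976 genes (8.91%), of which 849 were higher (3.83%) and 1127 lower (5.08%) under rapamycin. A further 441 genes (1.99%) separated in opposite directions. The count of calls rested on few arrays: it was 0 without rapamycin 1, rapamycin 2 and tamoxifen 2, 2 without vehicle 2 and tamoxifen 2, and 0 (without rapamycin plus tamoxifen 2) to 68 (without tamoxifen 1) with single arrays left out. All 11 genes kept their direction in each of these fits.

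The 2 strata gave unequal counts when tested singly. Rapamycin against vehicle gave 11 called genes (0.0496%), 2 higher (0.00902%) and 9 lower (0.0406%). Rapamycin plus tamoxifen against tamoxifen gave 0 called genes (0%), while 1257 (5.67%) had a limma p under 0.05 before adjustment. The difference between the strata was called in 0 genes by limma, while 627 (2.83%) had a p under 0.05 before adjustment. The averaged effect had 2898 genes (13.1%) at that unadjusted level, 1252 higher (5.64%) and 1646 lower (7.42%). Across the 22180 genes, which are not independent, the strata's differences had a Pearson correlation of 0.596. It was 0.326 with each array's squamous mean as a covariate, and 0.0783 without rapamycin 1, rapamycin 2 and tamoxifen 2, the arrays whose removal leaves like squamous values within each stratum. That removal also leaves 1 rapamycin array and 1 tamoxifen array. It drops tamoxifen 2, whose deviation from its group mean correlated at 0.561 with that of vehicle 2. The part of each in the lower correlation was not tested.

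**Figure D1:**
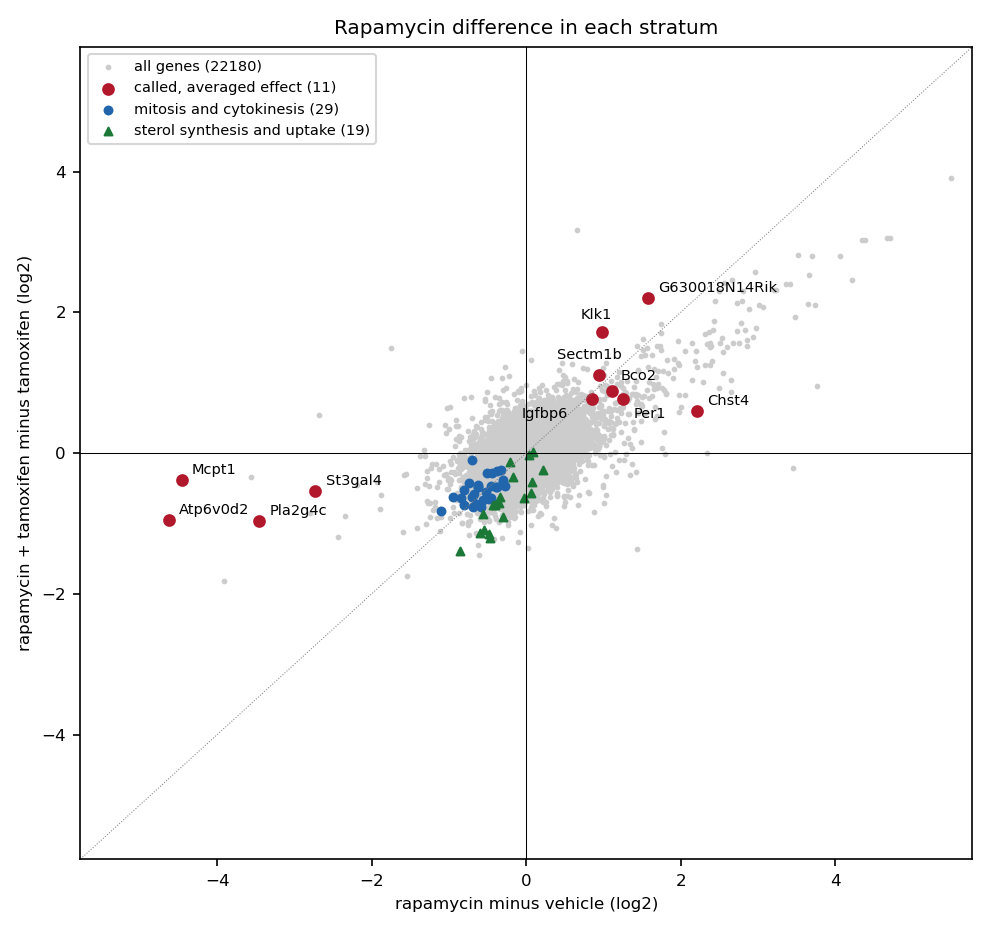
Difference in log2 expression between rapamycin and vehicle arrays (horizontal axis) and between rapamycin plus tamoxifen and tamoxifen arrays (vertical axis) for 22180 genes, grey. The 11 called genes are red and named, the 29 mitosis genes blue and the 19 sterol genes green; Mcpt1, Atp6v0d2, Pla2g4c and St3gal4 lie far to the left but between -0.96 and -0.38 on the vertical axis, and the mitosis genes cluster below 0 on both axes.

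The vacuolar proton pump acidifies lysosomes and is part of the platform on which mTORC1 senses amino acids. Atp6v0d2 encodes the d2 isoform of its membrane sector, best known from osteoclasts and macrophages. It stood at 4.21, 3.70 and 3.59 in the rapamycin arrays, against 8.0 and 8.92 in the vehicle arrays. It stood at 7.46 and 7.42 in the rapamycin plus tamoxifen arrays, against 8.71 and 8.08 in the tamoxifen arrays. The rapamycin arrays were the lowest of all by more than 3 log2 units, and neither stratum's groups overlapped. The averaged fall was -2.79 ± 0.22 (limma standard error, adjusted p = 0.00816), a 6.93-fold lower level. Without tamoxifen the difference was -4.63 ± 0.30 (adjusted p = 0.00132) and under tamoxifen -0.95 ± 0.33 (adjusted p = 0.814). The difference between strata, 3.68 ± 0.45, had an unadjusted p of 2.01e-05 and an adjusted p of 0.223 in limma. Of 24 measured pump genes Atp6v0d2 was the called one (4.17%, against 0.0496% of all genes). The list's median was -0.11, against -0.02 over all genes. The sister isoform Atp6v0d1, named here after its value was seen, differed by -0.23 (limma adjusted p = 0.404). Tcirg1, the pump's a3 subunit, differed by -0.32 (limma adjusted p = 0.353), likewise chosen after its value was seen.

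Pla2g4c, which releases fatty acids from membrane phospholipids, measured 6.16, 6.26 and 6.11 in rapamycin arrays and 9.26 and 10.01 in vehicle arrays. It measured 7.78 and 7.07 in rapamycin plus tamoxifen arrays and 8.29 and 8.49 in tamoxifen arrays. The 3 rapamycin arrays were nearly alike and the lowest of the 9. Its averaged fall was -2.21 ± 0.19 (limma adjusted p = 0.00816), made of -3.46 without and -0.96 under tamoxifen. St3gal4, which adds sialic acid to galactose on glycoproteins, measured 6.05, 5.97 and 5.76 in rapamycin arrays and 8.46 and 8.86 in vehicle arrays. Under tamoxifen St3gal4 measured 6.44 and 6.04 with rapamycin and 6.86 and 6.70 without. The tamoxifen arrays were thus already well below the vehicle arrays, and the averaged fall was -1.63 ± 0.13 (limma adjusted p = 0.00816), made of -2.73 and -0.54. Between strata the difference had a limma adjusted p of 0.592 for Pla2g4c and 0.223 for St3gal4. Pla2g4c, St3gal4 and Atp6v0d2 kept their call most often when arrays were left out singly: St3gal4 in 8 of 9 fits, Atp6v0d2 and Pla2g4c in 7 of 9 each.

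Mcpt1, a chymase stored in the granules of mucosal mast cells, measured 5.71, 4.58 and 5.91 in rapamycin arrays, against 9.49 and 10.23 in vehicle arrays. It measured 6.6 and 6.53 in rapamycin plus tamoxifen arrays, against 6.64 and 7.25 in tamoxifen arrays. The separation under tamoxifen was narrow, and its difference there was -0.38 ± 0.43, less than its error, against -4.46 ± 0.39 without tamoxifen. The averaged fall was -2.42 ± 0.29 (limma adjusted p = 0.0353), and the difference between strata had a limma adjusted p of 0.492. Of 10 measured mast cell genes, 1 was called (10%, against 0.0496% of all genes) and 7 were lower at an unadjusted p under 0.05 (70%, against 7.42%). Mcpt1 and Mcpt2 were known from earlier results of these data when this list was chosen, so these shares were partly known beforehand. The list's median was -0.74, made of -1.25 without and -0.23 under tamoxifen. The mean of the 10 genes was 5.49, 5.47 and 5.61 in rapamycin arrays, against 6.82 and 7.29 in vehicle arrays. It was 5.75 and 5.68 in rapamycin plus tamoxifen arrays, against 5.56 and 6.18 in tamoxifen arrays, where the groups overlapped. In separated cells Mcpt1 was at 2.86 in the parietal fraction, against 10.13 in the other cells, 1 array each.

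Atp6v0d2, Pla2g4c and St3gal4 are not members of that list, and like its mean they were far lower in rapamycin than in vehicle arrays. In tamoxifen arrays Atp6v0d2 averaged 8.4, against 8.46 in vehicle arrays, while Mcpt1 averaged 6.95 against 9.86. Pla2g4c averaged 8.39 against 9.63, and St3gal4 6.78 against 8.66. Parietal minus other cells, 1 array each, was -7.27 for Mcpt1 and -3.25 for Atp6v0d2. It was -0.79 for Pla2g4c and 0.29 for St3gal4. With each array's mast cell mean as a covariate, 0 genes were called for the averaged effect in limma, while all 11 genes kept their direction. That mean includes Mcpt1, and without tamoxifen it parts the rapamycin arrays (5.47 to 5.61) from the vehicle arrays (6.82 and 7.29). The covariate and rapamycin can therefore hardly be told apart there, and the lost calls do not measure mast cell content. The part of mast cell content in these falls was not tested.

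Of the genes that rose, G630018N14Rik, a RIKEN transcript, had the largest averaged rise, 1.89 ± 0.21 (limma adjusted p = 0.0353). It measured 7.11, 7.34 and 7.28 in rapamycin arrays and 5.61 and 5.72 in vehicle arrays, and 6.76 and 6.43 in rapamycin plus tamoxifen arrays and 3.82 and 4.97 in tamoxifen arrays. All 5 rapamycin arrays lay above all 4 others. Its other probe set differed by 0.69, in the same direction. Chst4, a sulfotransferase that modifies sugars of mucin-type glycoproteins, measured 6.78, 7.14 and 6.47 in rapamycin arrays and 4.79 and 4.39 in vehicle arrays. Under tamoxifen Chst4 measured 5.87 and 5.59 with rapamycin and 5.04 and 5.23 without. Its averaged rise was 1.40 ± 0.16 (limma adjusted p = 0.0353), with 2.21 without and 0.60 under tamoxifen.

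Klk1, tissue kallikrein, a serine protease that frees kinins, measured 10.03, 9.55 and 10.10 in rapamycin arrays and 8.76 and 9.07 in vehicle arrays. With tamoxifen given, Klk1 measured 9.72 and 9.48 with rapamycin and 7.91 and 7.84 without, so every rapamycin array was above every other. Its rise was 1.35 ± 0.14 (limma adjusted p = 0.0325), with 0.98 without and 1.72 under tamoxifen. Sectm1b, a secreted and transmembrane protein gene, measured 11.02, 10.98 and 10.77 in rapamycin arrays and 10.05 and 9.93 in vehicle arrays. In the tamoxifen stratum Sectm1b measured 10.91 and 11.14 with rapamycin and 10.13 and 9.72 without. The 2 strata were alike for Sectm1b, with 0.94 and 1.10, and the averaged rise was 1.02 ± 0.12 (limma adjusted p = 0.0353).

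Per1, a repressor of the circadian clock that glucocorticoids also induce, measured 8.71, 9.08 and 8.69 in rapamycin arrays and 7.63 and 7.50 in vehicle arrays. Under tamoxifen Per1 measured 8.91 and 8.80 with rapamycin and 8.12 and 8.06 without. All 5 rapamycin arrays were above the other 4, and the averaged rise was 1.01 ± 0.11 (limma adjusted p = 0.0353). Of 17 clock genes Per1 was the called one (5.88%, against 0.0496% of all genes), and the list's median was 0.02. At an unadjusted limma p under 0.05, 3 clock genes were higher (17.6%, against 5.64% of all genes) and 0 lower. Of 11 glucocorticoid target genes, 8 were higher and Per1 alone was called (9.09%, against 0.0496%), with a median of 0.21. At that unadjusted level 4 of the 11 were higher (36.4%, against 5.64%) and 0 lower. Per1 is counted in both lists. It was known from earlier results of these data when the lists were chosen, so both called shares were partly known beforehand. The labels used here name no hour of tissue collection.

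Bco2, a mitochondrial enzyme that cleaves carotenoids, measured 7.56, 7.44 and 7.40 in rapamycin arrays and 6.48 and 6.24 in vehicle arrays. With tamoxifen given, Bco2 measured 7.65 and 7.57 with rapamycin and 6.93 and 6.52 without. Its averaged rise was 1.0 ± 0.12 (limma adjusted p = 0.0353), 1.11 without and 0.89 under tamoxifen. Igfbp6, a secreted protein that binds insulin-like growth factor II, measured 7.06, 7.01 and 6.97 in rapamycin arrays and 6.13 and 6.18 in vehicle arrays. In the tamoxifen stratum Igfbp6 measured 7.22 and 7.17 with rapamycin and 6.28 and 6.59 without. Its averaged rise was 0.81 ± 0.10 (limma adjusted p = 0.0353), and both strata were alike, with 0.85 and 0.76.

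Squamous and adipocyte genes were higher on several of the rapamycin arrays. All 12 squamous genes had an averaged difference above 0 (median 2.14), with 0 called by limma. Of them, 4 were past an unadjusted p of 0.05 (33.3%, against 5.64% of all genes). All 7 adipocyte genes were higher (median 0.53), with 0 called and 6 at that unadjusted level (85.7%, against 5.64%). With the squamous mean as a covariate 4 genes were called, G630018N14Rik, Atp6v0d2, Pla2g4c and St3gal4, and the other 7 kept their direction. The part of squamous and fat tissue in the rises was not tested. Klk1, Sectm1b and Bco2 were lower in the parietal fraction, by -4.19, -2.88 and -2.12, than in the other cells. The same difference was -1.46 for G630018N14Rik, -0.87 for Chst4, 0.00 for Per1 and 0.41 for Igfbp6, with 1 array of each fraction.

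**Figure D2:**
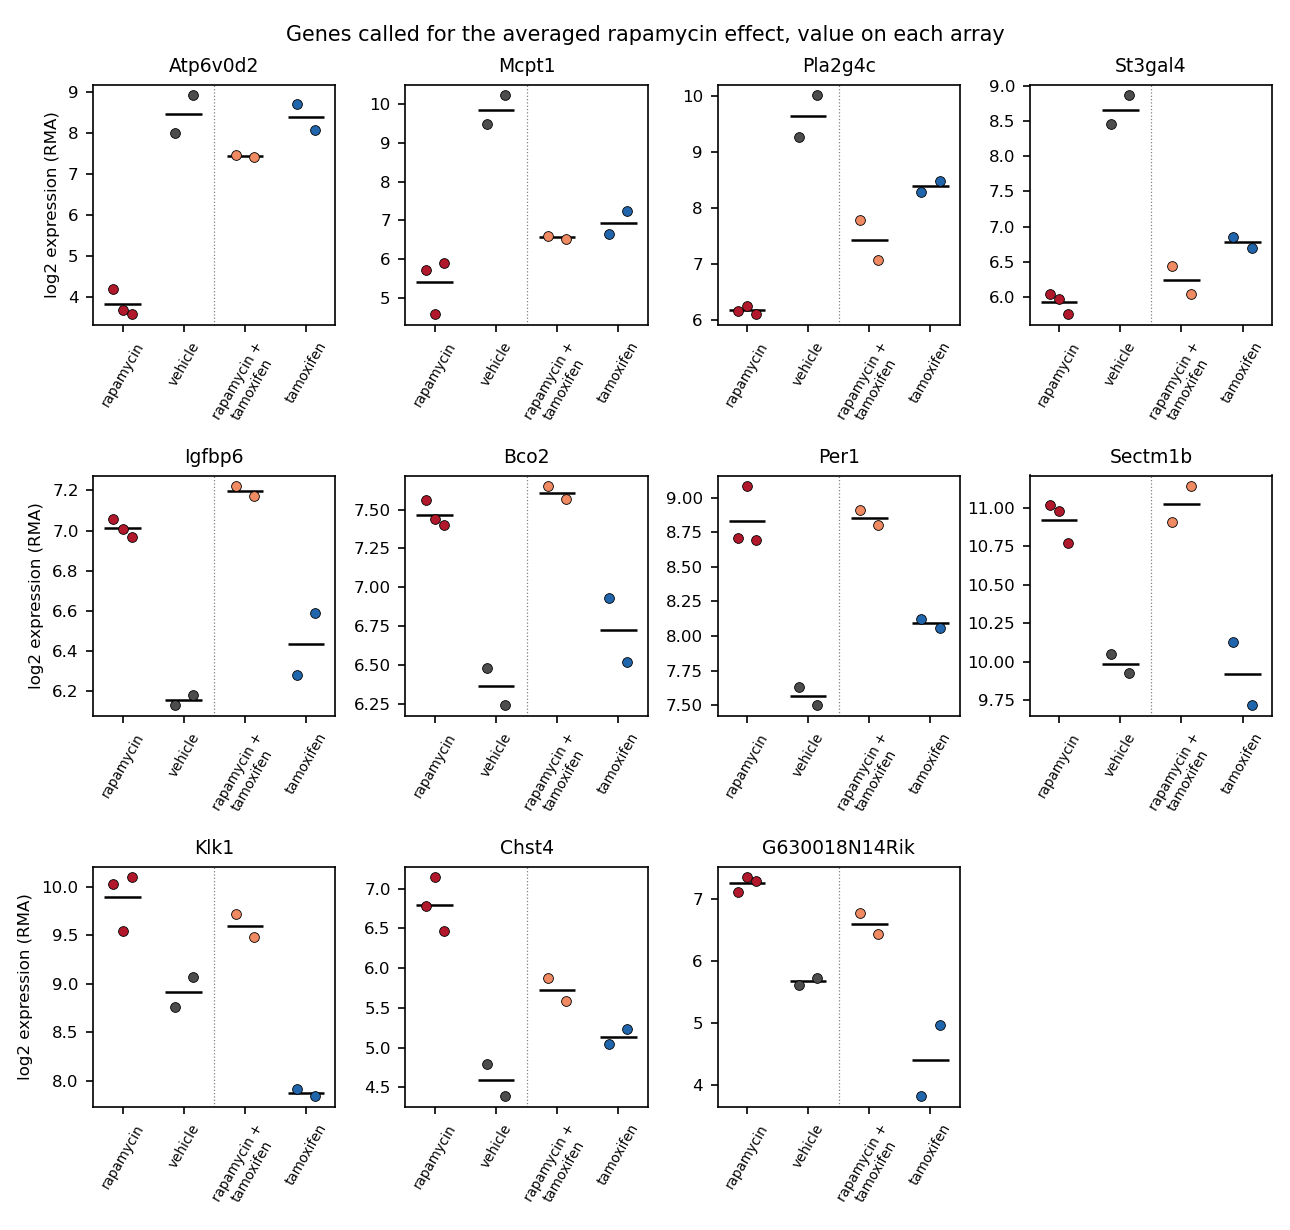
Log2 expression (RMA) of the 11 called genes on each of the 9 arrays, ordered by averaged difference; points are arrays, lines group means, and the dotted line parts the stratum without tamoxifen (left) and the one under tamoxifen (right). Atp6v0d2, Mcpt1, Pla2g4c and St3gal4 are far lower in rapamycin than in vehicle arrays and closer under tamoxifen, while Sectm1b, Bco2 and Igfbp6 are separated by a like amount in both strata.

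Promoter sequences were read for the called genes to show which short motifs they hold. The RefSeq promoter table (GRCm38.p6) held 10 of the 11. The 250 bases before each listed start were searched on both strands for CACGTG (E-box core bound by TFEB and MYC family factors), TGATGNAA (ATF4 composite element), TCACCCCA (sterol response element core) and TGACGTCA (cAMP response element). The CCAAT box and the cell cycle homology region (CHR), with letters TTTGAA, were added after values were seen. The E-box core was in 1 of the 10 promoters, that of Per1 (10%, against 6.86% of 27025 genes), CCAAT in 6 (60%, against 37.5%) and TTTGAA in 2 (20%, against 18.3%). The other 3 motifs were in 0 of the 10. The 4 called genes of largest averaged change that the table holds, and Per1 for its E-box, are shown 5′ to 3′ and end just before the listed start (the first listed of 2 for Pla2g4c, G630018N14Rik and Per1), with matches to any of the motifs in capitals:
Mcpt1, chr14:56017714-56017963, plus strand: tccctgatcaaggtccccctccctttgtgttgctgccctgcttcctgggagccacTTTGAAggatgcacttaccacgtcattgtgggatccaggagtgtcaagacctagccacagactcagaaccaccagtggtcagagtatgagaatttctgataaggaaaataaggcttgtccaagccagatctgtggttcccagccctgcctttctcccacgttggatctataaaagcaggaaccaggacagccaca
Pla2g4c, chr7:13325417-13325666, plus strand: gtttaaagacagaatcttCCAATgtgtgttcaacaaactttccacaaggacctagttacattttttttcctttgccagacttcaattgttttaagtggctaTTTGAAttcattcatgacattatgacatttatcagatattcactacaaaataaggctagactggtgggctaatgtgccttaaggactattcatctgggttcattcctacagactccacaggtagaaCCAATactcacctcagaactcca
G630018N14Rik, chr13:31409104-31409353, minus strand: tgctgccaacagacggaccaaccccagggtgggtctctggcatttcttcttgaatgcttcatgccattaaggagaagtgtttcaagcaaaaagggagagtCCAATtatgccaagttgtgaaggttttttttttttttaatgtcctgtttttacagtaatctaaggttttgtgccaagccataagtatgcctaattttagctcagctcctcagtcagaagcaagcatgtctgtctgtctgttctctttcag
St3gal4, chr9:35116865-35117114, minus strand: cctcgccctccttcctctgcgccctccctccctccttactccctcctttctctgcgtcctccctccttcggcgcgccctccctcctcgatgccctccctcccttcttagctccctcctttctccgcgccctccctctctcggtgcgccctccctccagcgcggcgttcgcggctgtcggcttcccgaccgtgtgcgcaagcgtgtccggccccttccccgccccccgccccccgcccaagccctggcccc
Per1, chr11:69098699-69098948, plus strand: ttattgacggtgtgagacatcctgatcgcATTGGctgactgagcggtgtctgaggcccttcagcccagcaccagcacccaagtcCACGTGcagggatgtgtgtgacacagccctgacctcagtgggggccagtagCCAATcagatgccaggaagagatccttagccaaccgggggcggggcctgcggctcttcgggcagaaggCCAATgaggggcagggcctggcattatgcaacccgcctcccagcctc
The capitals mark TTTGAA at 195 bases before the start in Mcpt1 and at 149 in Pla2g4c, CCAAT in Pla2g4c and G630018N14Rik, and CACGTG at 166 bases in Per1 with CCAAT or its reverse complement beside it. St3gal4 held no match. No single motif was present in all of them.

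The lists of mTORC1-related genes were then read against the whole array. The 21 lists held 487 measured genes, of which 2 were called, Atp6v0d2 and Igfbp6 (0.411%, against 0.0496% of all genes). Atp6v0d2 was known from earlier results of these data when the lists were chosen, so this share was partly known beforehand. Before adjustment, 99 of the 487 genes had a p under 0.05 and were lower (20.3%, against 7.42% of all genes) and 24 higher (4.93%, against 5.64%). Groups did not overlap in either stratum in 72 genes that were lower (14.8%, against 5.08%) and 15 that were higher (3.08%, against 3.83%). Leaving out the mitosis list, 70 of 458 genes were lower at that unadjusted level (15.3%). List medians were below 0 in 20 of the 21 lists and below the all-gene median in 19. The count changed with the setting. With each array's mast cell mean as a covariate, medians were below 0 in 4 of 21 lists, those of mitosis, S phase, lysosome and fatty acid synthesis. That mean was higher in vehicle 2 than vehicle 1 (7.29 against 6.82) and in tamoxifen 2 than tamoxifen 1 (6.18 against 5.56). Mast cell signal and other departures of those arrays therefore cannot be told apart by this covariate. Of the 73 named genes, 26 that were not called had the opposite sign with that covariate. Without vehicle 2 and tamoxifen 2, 14 of the 21 medians were below 0, and with the squamous covariate 17. The part of mast cell content in the lists' direction was not tested.

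**Figure D3:**
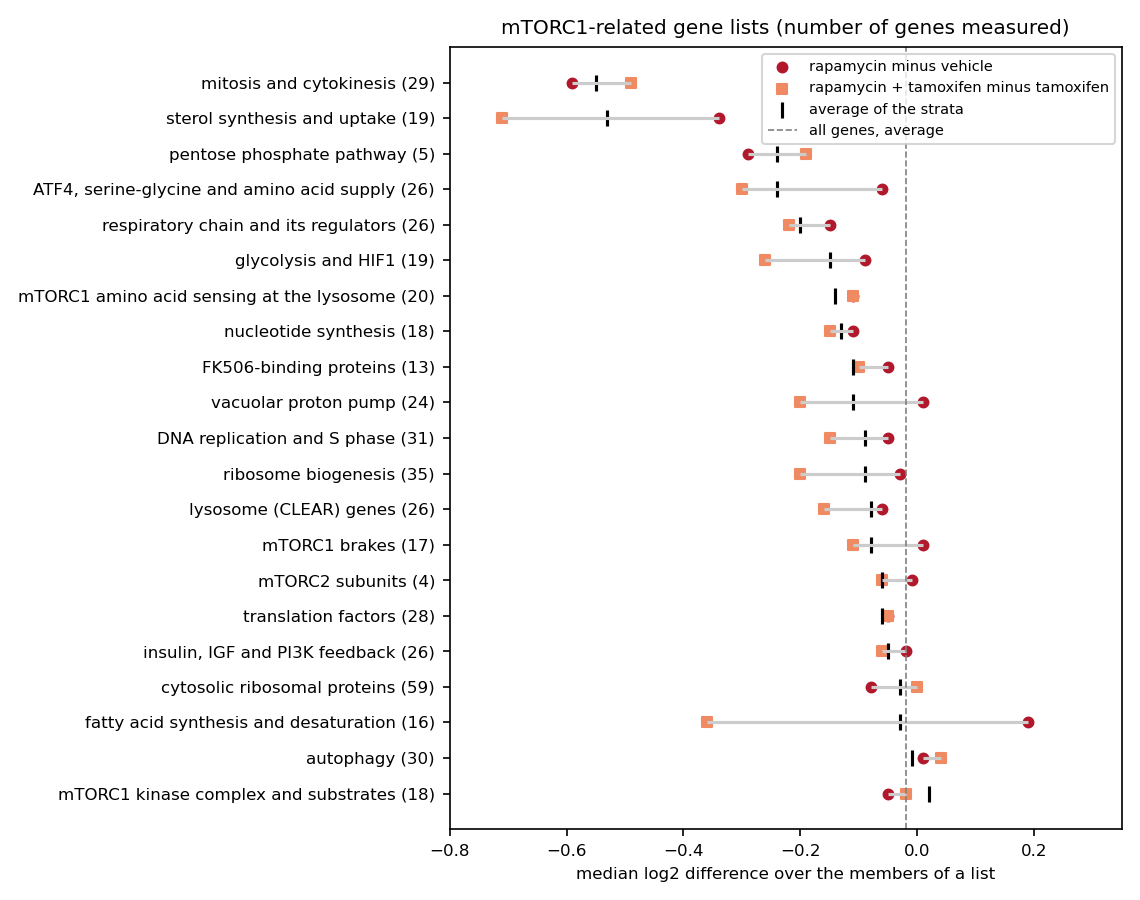
Median log2 difference over the members of each of 21 mTORC1-related lists, without tamoxifen (circles), under tamoxifen (squares) and averaged (short black lines), with the all-gene median dashed; the number of measured genes is in brackets. Mitosis (median -0.55) and sterol synthesis (-0.53) stand farthest below the dashed line, while the mTORC1 complex, autophagy and ribosomal protein lists lie close to it.

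Mitosis and cytokinesis genes were lower together in both strata. All 29 measured genes had an averaged difference below 0, against 54% of all genes. All 29 also had an unadjusted p under 0.05 (100%, against 7.42% of all genes lower at that level). In 27 of 29 (93.1%, against 5.08% of all genes) the groups did not overlap in either stratum. The median was -0.55, with -0.59 without and -0.49 under tamoxifen, against -0.02 over all genes in each. None of the 29 was called over all genes in limma. The smallest adjusted p was 0.0718, for Ccna2.

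The mean of the 29 genes was 6.76, 6.64 and 6.62 in rapamycin arrays, against 7.25 and 7.26 in vehicle arrays. It was 7.77 and 7.66 in rapamycin plus tamoxifen arrays, against 8.18 and 8.29 in tamoxifen arrays. The arrays of each group lay close together, and the 4 groups did not overlap, with the combined arrays between the vehicle and tamoxifen arrays. Ccna2, cyclin A2, which drives S phase and entry into mitosis, measured 7.79, 7.67 and 7.69 in rapamycin arrays and 8.48 and 8.30 in vehicle arrays. With tamoxifen given, Ccna2 measured 8.79 and 8.84 with rapamycin and 9.35 and 9.45 without, and the averaged difference was -0.63 ± 0.09. The separation was of like size in both strata (-0.68 and -0.58).

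Kif20a, a kinesin of the central spindle in cytokinesis, measured 6.67, 6.59 and 6.52 in rapamycin arrays and 7.24 and 7.32 in vehicle arrays. Under tamoxifen Kif20a measured 7.48 and 7.31 with rapamycin and 7.97 and 8.34 without, an averaged difference of -0.73 ± 0.11 (limma adjusted p = 0.0807). Among members chosen after their values were seen, Prc1, which bundles spindle microtubules, differed by -0.69 (adjusted p = 0.0906). Ube2c, the enzyme that feeds ubiquitin to the anaphase-promoting complex, differed by -0.61, and Cenpe, a kinetochore motor, by -0.79, each at a limma adjusted p of 0.0906. Mki67, the Ki-67 proliferation antigen, had the largest difference of the list at -0.96 ± 0.19 (adjusted p = 0.164), and Aurkb, the kinase of the chromosomal passenger complex, the smallest at -0.28 (adjusted p = 0.34). Ndc80, an outer kinetochore protein, was the least even between strata, with -0.70 without and -0.10 under tamoxifen. The 2 members with overlap were Bub1, under tamoxifen, and Racgap1, without it.

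In every alternative fit and with each array left out in turn, the mitosis median lay between -0.50 and -0.58. It was -0.54 without rapamycin 1, rapamycin 2 and tamoxifen 2, where 28 of 29 genes did not overlap in either stratum (background 12.7%), and -0.51 without vehicle 2 and tamoxifen 2. With the squamous covariate it was -0.54, and with the mast cell covariate -0.50, where 26 of 29 were below 0 and 14 had an unadjusted p under 0.05. Among other settings, a filter on dim probe sets or limma's trend called Ccna2, Kif20a, Prc1 and Ube2c, and Kif20a and Prc1 were called without tamoxifen 1. In separated cells the list's mean was 3.71 in the parietal fraction, against 5.47 in the other cells. Parietal, chief, neck mucous and pit mucous lists had medians of -0.08, 0.06, 0.21 and 0.02 for the averaged effect, each with 0 called genes. DNA replication and S phase genes, which act before mitosis, had a smaller difference: 24 of 31 were lower, 4 at an unadjusted p under 0.05 and 3 (9.68%, against 5.08%) without overlap in either stratum, with a median of -0.09. Clspn, which signals stalled replication forks to the checkpoint, differed by -0.30 and Chaf1a, a chromatin assembly factor, by -0.32, at limma adjusted p-values of 0.315 and 0.342.

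**Figure D4:**
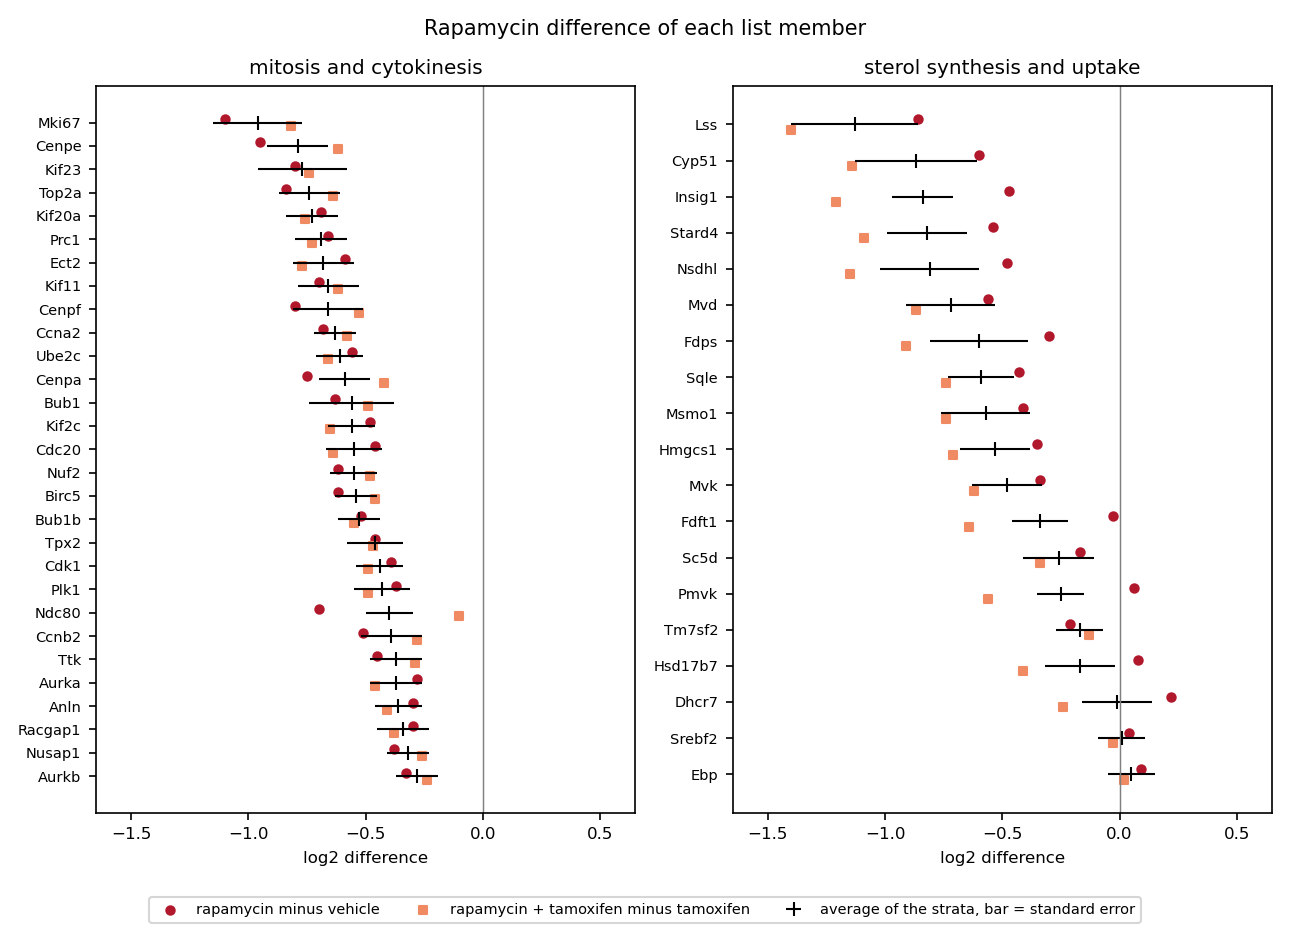
Log2 difference of each measured mitosis gene (29, left) and sterol gene (19, right) without tamoxifen (red circles) and under tamoxifen (orange squares), with the average and its limma standard error in black. Every mitosis gene lies left of 0 in both strata, from Mki67 at -0.96 to Aurkb at -0.28 on average, while the sterol genes spread on both sides of 0, from Lss at -1.13 on average.

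CHR and CCAAT motifs are known from promoters of G2 and mitosis genes, where the DREAM complex and NF-Y bind. TTTGAA was found in 10 of the 25 mitosis promoters in the table (40%, against 18.3% of 27025 genes) and CCAAT in 19 (76%, against 37.5%). CACGTG was in 2 of 25 (8%, against 6.86%). These motif searches were added after the values were seen, and a match does not show that a site is used. Among members with TTTGAA before their first listed start, Ube2c and Top2a had the smallest p, and their promoters are shown with matches in capitals:
Ube2c, chr2:164769679-164769928, plus strand: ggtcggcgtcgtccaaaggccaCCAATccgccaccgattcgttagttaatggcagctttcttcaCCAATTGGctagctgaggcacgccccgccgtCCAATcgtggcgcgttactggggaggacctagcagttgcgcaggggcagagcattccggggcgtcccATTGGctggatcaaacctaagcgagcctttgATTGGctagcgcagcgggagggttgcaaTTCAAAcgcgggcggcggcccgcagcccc
Top2a, chr11:99024190-99024439, minus strand: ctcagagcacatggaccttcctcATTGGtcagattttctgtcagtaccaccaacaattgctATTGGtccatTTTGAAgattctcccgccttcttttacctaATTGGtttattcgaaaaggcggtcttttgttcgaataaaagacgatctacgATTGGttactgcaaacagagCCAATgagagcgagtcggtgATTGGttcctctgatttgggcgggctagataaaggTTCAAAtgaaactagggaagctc
In Ube2c the reverse complement of TTTGAA stands 29 bases before the start, and a forward and a reversed CCAAT match overlap in 1 run of capitals. CCAAT or its reverse complement also stands at several places in Top2a. In this gene, which encodes DNA topoisomerase II alpha, the reverse complement of TTTGAA stands 23 bases before the start and TTTGAA 179 bases before it. Top2a measured 7.05, 6.73 and 6.84 in rapamycin arrays and 7.58 and 7.85 in vehicle arrays, and 8.48 and 8.25 in rapamycin plus tamoxifen arrays and 8.79 and 9.21 in tamoxifen arrays. Neither stratum overlapped for Top2a, whose averaged difference was -0.74 ± 0.13 (limma adjusted p = 0.114).

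Sterol synthesis and uptake genes, which SREBP2 drives and mTORC1 promotes, had medians below 0 in both strata. Of 19 measured, 17 had a difference below 0 and 13 an unadjusted p under 0.05, with 0 called by limma and a smallest adjusted p of 0.0807. The median was -0.53, with -0.34 without and -0.71 under tamoxifen. Groups did not overlap in either stratum in 4 genes, Insig1, Stard4, Sqle and Mvd (21.1%, against 5.08%). Insig1, which retains SREBP in the endoplasmic reticulum and is itself its target, measured 9.96, 9.91 and 9.77 in rapamycin arrays and 10.12 and 10.58 in vehicle arrays. In the tamoxifen stratum Insig1 measured 9.85 and 9.73 with rapamycin and 10.85 and 11.14 without, an averaged difference of -0.84 ± 0.13 (limma adjusted p = 0.0807). The gap was wider under tamoxifen (-1.21) than without it (-0.47), with an unadjusted p of 0.0161 for the difference between strata and an adjusted p of 1.

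Stard4, which carries cholesterol between membranes, differed by -0.82 ± 0.17 (limma adjusted p = 0.184). Lss, lanosterol synthase, had the largest averaged difference of the list, -1.13 ± 0.27 (limma adjusted p = 0.238), with overlap in the stratum without tamoxifen. Srebf2 itself, which encodes SREBP2, differed by 0.01, and Dhcr7, the last enzyme of the pathway, by -0.01. Lss, Srebf2 and Dhcr7 were picked with their values known. The sterol mean was 8.50, 8.40 and 8.22 in rapamycin arrays, against 8.41 and 8.89 in vehicle arrays, which overlapped. It was 8.51 and 8.45 in rapamycin plus tamoxifen arrays, against 9.0 and 9.32 in tamoxifen arrays, which did not. Vehicle 2 and tamoxifen 2 were the highest of their groups, and without them the median was -0.26. The 4 genes without overlap became 13 without vehicle 1 (background 12.2%), 8 without rapamycin 1 (6.26%) and 12 without rapamycin 1, rapamycin 2 and tamoxifen 2 (12.7%). With the mast cell covariate it was 0.09, with 7 of 19 below 0. The part of those arrays' shared departure and of mast cell content was not tested.

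The E-box core was in 4 of 15 sterol promoters in the table (26.7%, against 6.86%). The search of sterol promoters, like that of mitosis promoters, was not planned, and a match does not show that a site is used. The promoter window of Insig1, the sterol gene of smallest p, is shown with matches in capitals:
Insig1, chr5:28071162-28071411, plus strand: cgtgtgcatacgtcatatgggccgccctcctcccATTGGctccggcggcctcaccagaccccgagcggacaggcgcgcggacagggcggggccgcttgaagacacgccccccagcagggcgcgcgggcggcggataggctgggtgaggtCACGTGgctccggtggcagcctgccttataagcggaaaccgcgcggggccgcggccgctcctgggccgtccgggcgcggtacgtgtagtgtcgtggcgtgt
The capitals mark CACGTG 101 bases before the start and the reverse complement of CCAAT 216 bases before it. CCAAT was in all 15 sterol promoters, against 37.5% of genes, and TCACCCCA in 2 (13.3%, against 1.54%), those of Hmgcs1 and Srebf2.

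**Figure D5:**
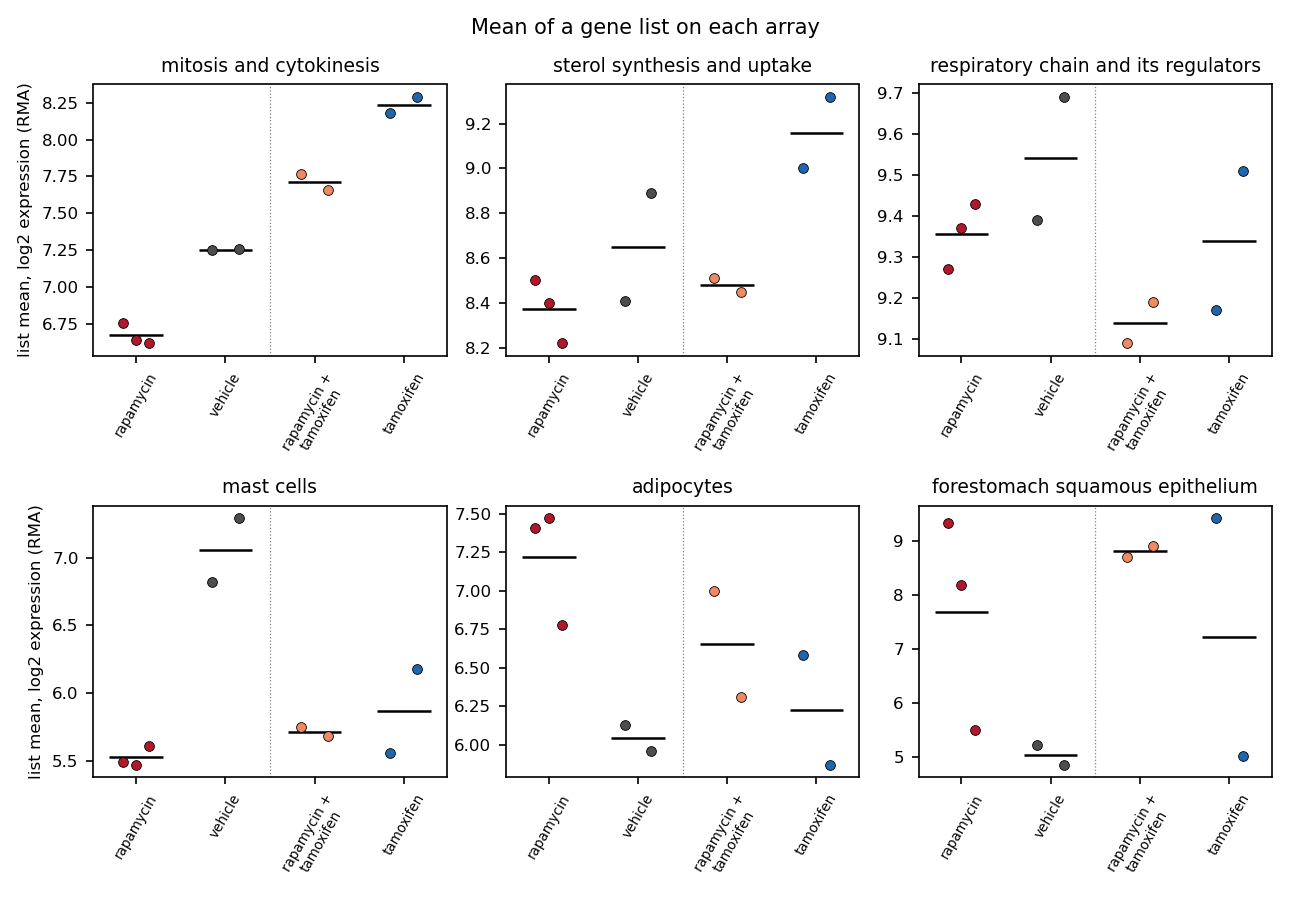
Mean log2 expression (RMA) of 6 gene lists on each of the 9 arrays; points are arrays, lines group means, and the dotted line parts the strata. The mitosis means separate in both strata, the sterol means overlap without tamoxifen, the respiratory chain means overlap in both strata, and the squamous means differ widely between arrays of the same group.

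Other arms of lipid and amino acid supply were less even. Fatty acid synthesis and desaturation genes had a median of -0.03 over 16 genes, made of 0.19 without and -0.36 under tamoxifen. Scd1, which desaturates stearate, measured 10.71, 10.30 and 9.48 in rapamycin arrays, against 7.16 and 6.26 in vehicle arrays. It measured 8.0 and 6.92 in rapamycin plus tamoxifen arrays, against 8.06 and 7.28 in tamoxifen arrays, which overlapped. The averaged difference of 1.62 ± 0.34 had a limma adjusted p of 0.187. Me1, malic enzyme, which makes NADPH for lipid synthesis, was lower in both strata without overlap, with an averaged difference of -0.99 ± 0.22 (limma adjusted p = 0.212). Adipocyte genes were higher on the same rapamycin arrays as Scd1: their mean was 7.41, 7.47 and 6.78 in rapamycin arrays against 6.13 and 5.96 in vehicle arrays, and the part of fat in Scd1 was not tested.

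Genes of ATF4, which mTORC1 uses to drive serine, glycine and one-carbon supply, had a median of -0.24 over 26 genes, with 19 lower, 9 of them at an unadjusted p under 0.05 (34.6%, against 7.42%). With the mast cell covariate the ATF4 median was 0.07 with 8 of 26 genes below 0, with the squamous covariate -0.11, and without vehicle 2 and tamoxifen 2 it was -0.10. The strata were unequal, with medians of -0.06 without and -0.30 under tamoxifen. Aldh18a1, which starts proline synthesis, differed by -0.49 ± 0.13 without overlap in either stratum (limma adjusted p = 0.271), and by 0.11 with the mast cell covariate. Psat1, of serine synthesis, differed by -0.50 ± 0.14 (limma adjusted p = 0.273), with overlap in the stratum without tamoxifen. Of 5 measured pentose phosphate genes, 3 were lower without overlap in either stratum (60%, against 5.08%), among them Pgd, which makes NADPH, at -0.39 (limma adjusted p = 0.336). Median centring left 1 of the 5 without overlap. The pentose phosphate median of -0.24 was 0.31 with the mast cell covariate, where 1 of 5 genes was below 0 and Pgd stood at 0.17, and -0.08 without vehicle 2 and tamoxifen 2. Nucleotide synthesis genes had a median of -0.13 over 18 genes, with Rrm2, the small subunit of ribonucleotide reductase, at -0.46 ± 0.11 (limma adjusted p = 0.237). A second Rrm2 probe set differed by -0.01, so the gene's probe sets disagreed. The nucleotide median was 0.10 with the mast cell covariate and -0.06 without vehicle 2 and tamoxifen 2.

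Glycolysis and HIF1 genes had a median of -0.15 over 19 genes, and 15 were lower (78.9%, against 54% of all genes). Pfkp, the platelet-type phosphofructokinase, measured 9.02, 8.90 and 8.96 in rapamycin arrays and 9.35 and 9.34 in vehicle arrays. With tamoxifen given, Pfkp measured 8.81 and 8.57 with rapamycin and 9.24 and 9.51 without, an averaged difference of -0.54 ± 0.10 (limma adjusted p = 0.16). Hif1a, the hypoxia factor whose translation mTORC1 raises, differed by -0.39 ± 0.09 (limma adjusted p = 0.238), also without overlap in either stratum. Respiratory chain genes had a median of -0.20 and 23 of 26 were lower, 4 at an unadjusted p under 0.05. Without vehicle 2 and tamoxifen 2 that median was -0.04, without rapamycin 1, rapamycin 2 and tamoxifen 2 it was -0.07, with the squamous covariate -0.06 and with the mast cell covariate 0.29. It was -0.13 without vehicle 2 and -0.11 without tamoxifen 2. Tfam, which packs mitochondrial DNA and starts its transcription, differed by -0.25 (limma adjusted p = 0.352).

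The translation machinery, whose mRNAs mTORC1 controls mostly at the ribosome rather than by level, stayed near the all-gene median. Cytosolic ribosomal protein genes had a median of -0.03 over 59 genes. At an unadjusted p under 0.05, 6 were higher (10.2%, against 5.64% of all genes) and 1 lower (1.69%, against 7.42%). Ribosome biogenesis genes had a median of -0.09 over 35 genes, and 24 were lower (68.6%, against 54% of all genes). Myc, a driver of that list, went the other way with 8.92, 9.12 and 8.95 in rapamycin arrays and 8.56 and 8.12 in vehicle arrays. Under tamoxifen Myc measured 9.98 and 9.93 with rapamycin and 9.37 and 8.72 without, and the averaged difference of 0.78 ± 0.15 had a limma adjusted p of 0.163. Neither stratum overlapped for Myc, and with the mast cell covariate its difference was -0.04. Translation factor genes had a median of -0.06 over 28 genes, with Eif3h at 0.34 and Eif5 at -0.41 (limma adjusted p = 0.266 and 0.351).

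Among mTORC1's own parts and sensors, no gene was called and most differences were within 0.3 log2 units. The kinase Mtor differed by 0.06 ± 0.11, its scaffold Rptor by -0.14 ± 0.11 and its activator Rheb by -0.15 ± 0.21, each at a limma adjusted p above 0.5. Fkbp1a, which encodes FKBP12, rapamycin's partner, measured 7.41, 7.44 and 7.44 in rapamycin arrays and 7.34 and 7.14 in vehicle arrays. Under tamoxifen Fkbp1a measured 7.58 and 7.58 with rapamycin and 7.50 and 7.41 without. The groups did not overlap in either stratum, and the averaged Fkbp1a difference was 0.16 ± 0.09 (limma adjusted p = 0.436). Eif4ebp1, the translation repressor that mTORC1 phosphorylates, differed by -0.29 ± 0.10 without overlap in either stratum (limma adjusted p = 0.342). The list of complex and substrates had a median of 0.02 over 18 genes.

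Of the brakes, Ddit4, a stress-induced inhibitor, differed by -0.44 ± 0.11 (limma adjusted p = 0.246), Tsc2 by -0.10, Deptor by 0.04 and Sesn2 by -0.22. Castor1, the arginine sensor, was higher by 0.51 ± 0.13 (limma adjusted p = 0.265), 0.81 without and 0.21 under tamoxifen, with no overlap in either stratum. Ifrd1, needed in mice for cells to regain mTORC1 activity after injury, differed by 0.04 ± 0.12. Rragd, a lysosomal GTPase that recruits mTORC1, differed by -0.38 and Lamtor3, of its anchor, by -0.46 (limma adjusted p = 0.345 and 0.365). Of 26 lysosomal genes 18 were lower, 7 at an unadjusted p under 0.05 (26.9%, against 7.42% of all genes), with a median of -0.08. At that level 1 was higher (3.85%, against 5.64%). Under quantile normalization the lysosomal median was -0.02, with 14 of 26 lower. Groups did not overlap in either stratum in 5 lower genes (19.2%, against 5.08%), and in 2 after median centring (background 4.5%). Gusb, beta-glucuronidase, measured 7.79, 7.81 and 7.86 in rapamycin arrays and 8.07 and 8.08 in vehicle arrays, and 8.19 and 8.13 in rapamycin plus tamoxifen arrays and 8.53 and 8.51 in tamoxifen arrays. The averaged Gusb difference was -0.31 ± 0.08 (limma adjusted p = 0.27). Autophagy genes had a median of -0.01 over 30 genes. At an unadjusted p under 0.05, 4 were higher (13.3%, against 5.64% of all genes) and 1 lower (3.33%, against 7.42%). Atg10, which conjugates ATG12, was higher by 0.35 ± 0.10 (limma adjusted p = 0.306) and Wipi2, of the early autophagosome, by 0.31 ± 0.11 (limma adjusted p = 0.347).

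Insulin and growth factor signalling genes, on which mTORC1 exerts negative feedback, had a median of -0.05 over 26 genes. Igfbp6 was the called one (3.85%, against 0.0496% of all genes). Irs2, an insulin receptor adaptor named after its value was seen, measured 8.15, 8.19 and 8.06 in rapamycin arrays and 7.57 and 7.53 in vehicle arrays. Under tamoxifen Irs2 measured 7.85 and 7.81 with rapamycin and 7.11 and 7.6 without, an averaged difference of 0.53 (limma adjusted p = 0.211). Igfbp3, the main carrier of insulin-like growth factors in blood, differed by -0.57 (limma adjusted p = 0.223), likewise chosen after its value was seen. Both genes were without overlap in either stratum. Of the FK506-binding proteins, Fkbp11 had the smallest p, with a difference of -0.61 ± 0.12 (limma adjusted p = 0.171), -0.66 without and -0.56 under tamoxifen.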

How the data were processed

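Total RNA was amplified, labelled with biotin and hybridised to Affymetrix gene-level arrays, 1 per sample. The authors deposited RMA expression on the log2 scale, computed in Partek per the submitters' processing notes. Versions, settings and a genome build are named nowhere in the labels, and signal over background is not known; the number of arrays limits the precision.

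The platform's probe table named 1 symbol for 23521 of 41345 probe sets, several for 1814 and none for 16010. Of a gene's probe sets, the one with the highest 9-array mean stood for each of 22180 genes. Symbols were matched by gene ID to RefSeq (GRCm38.p6) for 23328 probe sets. No 2 arrays were identical.

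limma 3.58.1 in R 4.3.3 fitted 4 group means with 1 shared spread (5 residual degrees of freedom, prior 3.86), and p-values were adjusted by Benjamini-Hochberg over all genes, with a call at an adjusted p under 0.05. In simulated data with the same design and 22180 genes, 85% of genes given a change of 1 on the log2 scale, and 97% of genes given 2, were called for the averaged effect. The simulated noise was independent between arrays, whereas deviations of vehicle 2 and tamoxifen 2 from their group means correlated at 0.561. These shares therefore cannot say how many such changes would be called in the real arrays.

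Members and lists (40 lists, 673 of 749 entries measured) were chosen with earlier results of these data known. Named are called genes without overlap in both strata, the called members of a list or its 2 members of smallest p (1 for a cell type), fixed mTORC1 genes and the 4 genes whose strata differ most by p. Genes named outside this rule are said to be so. Alternatives were 11 planned settings besides each array left out in turn, and 2 settings added after seeing the data. Atp6v0d2, Ccna2, Kif20a and Stard4 had no entry used from the promoter table.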

Additional observations from a re-analysis of the deposited data

Results flagged for a closer look

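The strata moved apart in opposite directions for 3 items, with every rapamycin array on 1 side of every vehicle array and every rapamycin plus tamoxifen array on the other side of every tamoxifen array. Actg2, the actin of gut smooth muscle, differed by 0.26 without and by -0.76 under tamoxifen (unadjusted p for the difference between strata 0.000637 in limma, adjusted p = 1). Actg2 measured 11.25, 11.18 and 11.18 in rapamycin arrays against 11.11 and 10.78 in vehicle arrays. It measured 10.31 and 10.23 in rapamycin plus tamoxifen arrays against 11.06 and 11.00 in tamoxifen arrays.

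The mean of the smooth muscle list differed by 0.35 without and by -0.29 under tamoxifen, and the mean of the fatty acid synthesis list by 0.42 and -0.31. The difference between strata was not tested for these means. Opposite separation was seen in 441 of 22180 genes (1.99%).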

How the results depend on the processing

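All 11 called genes kept their direction in each setting run, but the number called depended on the setting. For the averaged effect the 11 calls (7 higher) became 37 (18 higher) without dim probe sets, 35 (16 higher) with limma's trend and robust fit, 4 in an additive model (4 higher and 0 lower, so that all 4 falls lost their call), 4 with the squamous covariate (1 higher and 3 lower) and 0 with the mast cell covariate. Quantile normalization called 8 (4 higher). Of the settings added after seeing the data, leaving out rapamycin 1, rapamycin 2 and tamoxifen 2 gave 0 and leaving out vehicle 2 and tamoxifen 2 gave 2. Genes called and also without overlap in both strata, 11 as reported, numbered 36 without dim probe sets, 34 with the trend, 4 in the additive model, 4 with the squamous and 0 with the mast cell covariate, 0 without the 3 arrays and 2 without the 2 arrays. In the stratum without tamoxifen, the 11 calls became 7 from its own arrays alone, 4 with the squamous covariate, 0 with the mast cell covariate, 0 without the 3 arrays and 1 without the 2 arrays. In the stratum under tamoxifen, 0 became 2 without vehicle 2 and tamoxifen 2. The difference between strata went to 871 calls with the mast cell covariate.

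With the replicate block the averaged and shared counts were 0 each and the difference between strata 1. Nothing in the labels says what a shared number stands for. Deviations of same-numbered arrays from their group means had correlations of 0.006 and -0.039 for rapamycin and vehicle and -0.112 for rapamycin plus tamoxifen and tamoxifen. They were 0.561 for tamoxifen and vehicle, the 2 groups without rapamycin, and 0.408 for rapamycin 1 and tamoxifen 1. Since not every pair was above 0.1, the numbers were not taken as pairs, and whether they mark a shared batch was not tested.

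Leaving out 1 array at a time gave 0 to 68 calls for the averaged effect: 3, 6 and 2 without rapamycin 1, 2 and 3, 17 and 3 without vehicle 1 and 2, 2 and 0 without rapamycin plus tamoxifen 1 and 2, and 68 and 4 without tamoxifen 1 and 2. Shared genes numbered 0 to 65, with the extremes in the same fits. The stratum without tamoxifen gave 3 (without vehicle 2) to 20 (without either tamoxifen array), the stratum under tamoxifen 0 to 1, and the difference between strata 0 to 0. Where a group keeps 1 array, its spread is assumed to be that of the others.

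The call counts rest on few arrays, with 5 residual degrees of freedom and groups of 2 or 3. The causes of these shifts were not tested. Dim probe sets were judged by mean level, since no detection call was used.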

Other observations

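Some genes just outside the threshold are given here as single values, chosen after their values were seen. Pdk4, which turns pyruvate away from oxidation, measured 8.49, 8.42 and 8.59 in rapamycin arrays and 8.16 and 7.89 in vehicle arrays. Under tamoxifen Pdk4 measured 8.92 and 8.95 with rapamycin and 7.90 and 7.94 without, an averaged difference of 0.75 ± 0.10 (limma adjusted p = 0.0563). Aldh3a1, an aldehyde dehydrogenase, was at 0.78 ± 0.11 with like strata (0.73 and 0.83, limma adjusted p = 0.0718). Lypd8, an antibacterial protein of the gut surface, was at -0.86 ± 0.11 and the cytokine receptor gene Il31ra at -0.69 ± 0.09 (limma adjusted p = 0.0577 for each). Klk1b5, a kallikrein related to Klk1, was at 1.16 ± 0.16 (limma adjusted p = 0.0673); probe sets of such near-identical paralogs may share signal.

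Further such genes, also picked after their values were seen and tested as no group, were the following. Kif20b, a kinesin of cytokinesis, was at -0.66 and Cip2a, an inhibitor of the phosphatase PP2A, at -0.74 (limma adjusted p = 0.0718 each), while Cks2, a CDK subunit, Kif15, a spindle kinesin, and Cdkn3, a CDK phosphatase, were at -0.62, -0.66 and -0.67 (limma adjusted p = 0.0906 each). Cip2a measured 5.91, 5.72 and 5.73 in rapamycin arrays and 6.44 and 6.62 in vehicle arrays, and 6.99 and 6.89 in rapamycin plus tamoxifen arrays and 7.53 and 7.82 in tamoxifen arrays. Its groups did not overlap in either stratum.

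Fibroblast genes split. The collagen genes Col1a1, Col3a1 and Col1a2 were at -0.72, -0.53 and -0.55 without overlap in either stratum (limma adjusted p = 0.223, 0.248 and 0.266). Dcn, the collagen-binding proteoglycan decorin, was at 0.53 ± 0.11 (limma adjusted p = 0.185) and Thy1 at 0.43 (limma adjusted p = 0.273), also without overlap. Gast, the hormone gastrin, measured 8.30, 6.28 and 6.71 in rapamycin arrays against 6.46 and 6.42 in vehicle arrays, which overlapped. It measured 9.73 and 9.08 in rapamycin plus tamoxifen arrays against 6.48 and 6.00 in tamoxifen arrays, a difference of 3.16 there (limma adjusted p = 0.163 for the average of 1.91). Macrophage genes had a median of -0.15 and interferon-stimulated genes of -0.20, with 0 called in either list. T lymphocyte, B and plasma cell, endocrine, endothelial, tuft cell, smooth muscle and pancreas lists had medians of -0.09, -0.18, 0.25, -0.06, 0.01, 0.06 and 0.03, and the fibroblast list -0.16. At an unadjusted limma p under 0.05, 4 of 11 T lymphocyte genes were lower (36.4%, against 7.42% of all genes) and 0 higher. Of 7 B and plasma cell genes, 3 were lower (42.9%) and 0 higher at that level, with 0 called in either list. Lower genes without overlap in either stratum numbered 1 (9.09%) and 2 (28.6%), against 5.08%. Means of these lists on the 9 arrays were 4.29 to 4.66 and 4.48 to 5.05.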
